A study of Mus musculus with 2 samples.

Results

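The 10 genes described here encode the central chaperones and folding enzymes of the endoplasmic reticulum (ER), together with Xbp1, a transcription factor that raises their expression, and a pair of its secretory-pathway targets: Hspa5, Hsp90b1, Calr, Canx, Pdia3, Pdia4, Pdia6, Sdf2l1, Manf and Xbp1. They were taken by symbol from a table of unique molecular identifier (UMI) counts in single retinal cells, and all 10 were present among its 17087 genes. The table holds 1 library of mice made diabetic with streptozotocin (STZ), a toxin of pancreatic beta cells, and 1 library of untreated mice. STZ was given as an intraperitoneal dose of 55 mg/kg to male C57BL/6J mice aged 3 to 5 weeks, diabetes was set at blood glucose above 300 mg/dL, and retinas were taken after 25 weeks of high glucose. The control library is labelled untreated and healthy, of strain C57BL/6, and its age is not given in the sources used here. Each library pools 3 retinas on the 10x Chromium 3′ platform, so there is 1 sample per group: no test was made, every ratio compares these libraries, and differences between mice cannot be told apart from differences between the groups. A single toxin-induced model in male mice limits what the STZ library stands for.

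Proteins that enter the ER are held by Hspa5 (BiP), an Hsp70 chaperone, and by Hsp90b1 (GRP94), an Hsp90 chaperone. Glycoproteins are folded by the lectins Calr (calreticulin) and Canx (calnexin), which work with Pdia3, while Pdia4 and Pdia6 are further disulfide isomerases. When unfolded protein builds up, the sensor IRE1 splices Xbp1 mRNA and ATF6 is cleaved, and both resulting factors act on promoters of these genes through the ER stress response element, in which CCAAT is followed by 9 bases and CCACG. Photoreceptors send large amounts of membrane protein through this compartment as their outer segments are renewed. A 3′ UMI count of Xbp1 does not tell the spliced from the unspliced transcript.

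The element was searched in RefSeq promoters of build GRCm38.p6, from 250 bases before to 50 bases after each gene's start, because it is the shared sequence by which this group of genes is known. A promoter was in the table for 9 of the 10 genes (all but Manf), and 5 of these 9 held the element, Hsp90b1 in 2 copies. Of all 32851 promoters listed by RefSeq, 0.119% held it. The copies are shown 5′ to 3′ on the strand of the gene with 12 flanking bases on each side, with the element in capitals, and where the element lies on the opposite strand it reads CGTGG, 9 bases, ATTGG.
Hspa5: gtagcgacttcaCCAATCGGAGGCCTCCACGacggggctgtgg
Pdia6: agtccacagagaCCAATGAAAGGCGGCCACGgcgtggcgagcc
Canx: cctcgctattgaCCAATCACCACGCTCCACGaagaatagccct
Hsp90b1, distal copy: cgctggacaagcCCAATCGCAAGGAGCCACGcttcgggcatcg
Hsp90b1, proximal copy: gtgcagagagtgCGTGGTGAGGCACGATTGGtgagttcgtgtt
Calr: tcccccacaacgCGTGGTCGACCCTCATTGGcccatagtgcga

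The Hspa5 copy spans chr2:34772025-34772043 on the plus strand, 65 to 47 bases before the RefSeq start. It lies inside the GENCODE M21 extent of the gene, which begins further upstream at position 34771970. The other copies lie upstream of the GENCODE extents of their genes. The Pdia6 copy is at chr12:17266491-17266509 (plus strand) and the Canx copy at chr11:50325800-50325818 (minus strand). The Hsp90b1 copies are at chr10:86705638-86705656 and chr10:86705533-86705551 (minus strand), and the Calr copy is at chr8:84847075-84847093 (minus strand). Hspa5 also held a match to the unfolded protein response element, searched as TGACGTG followed by G or A on both strands, which 1.12% of all promoters hold. It is at chr2:34771933-34771940, shown in capitals.
Hspa5, second motif: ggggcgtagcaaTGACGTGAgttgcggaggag

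The second element type, ATTGG, 1 base and CCACG, matched none of the 9 promoters and 0.0365% of all promoters. The block CCACG alone was in 7 of the 9, against 32.8% of all promoters, and CCAAT alone in 8 of the 9, against 37.4%. A match is a description of letters in this window, and nothing is drawn from its absence in Pdia3, Pdia4, Sdf2l1 and Xbp1.

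The STZ library had 12393 cells with a median of 2062 UMIs and 15.2% mitochondrial counts, and the control library 7169 cells with 3800 UMIs and 12.3%; after filters and removal of likely doublets 8232 STZ cells and 5098 control cells remained. The libraries share 21 barcodes. Cells were clustered without the 10 genes and without the other ER and stress genes described below, and clusters were named from marker genes, hence the ending -like. In the 8 classes that reached 50 cells in STZ and in control, between 7 of 8 and 9 of 9 of a class's own markers were higher than in all other cells in both libraries. The STZ library stands apart in 3 ways that touch the results: 1662 STZ cells but 5 control cells fell into unnamed clusters of low counts, most STZ rod bipolar-like cells formed a cluster (685 STZ and 33 control cells) other than the one that holds most control cells (109 STZ and 849 control cells), and its endothelial-like cells had a median of 946 UMIs against 3165 in control. Rod markers in other classes, a sign of free RNA or of mixed cells, were higher in STZ for 6 to 8 of 8 markers in every class but rods; none was at 0. Their summed level ran from 805 to 5586 CPM in STZ and from 585 to 7189 CPM in control, with endothelial-like cells at 2417 CPM in STZ and 649 CPM in control. In cone-like cells the sum was lower in STZ, at 5586 CPM against 7189 CPM in control, although 7 of 8 markers were higher. Many markers of other classes also stood higher in STZ outside their own class. The cone marker Opn1mw had 191 CPM in STZ and 45.6 CPM in control there, and the Müller marker Apoe 831 CPM in STZ and 280 CPM in control. Some, such as Trpm1 and Pax6, went the other way. The median mitochondrial share was higher in STZ in 7 of the 8 classes, all but amacrine-like cells, and ran from 9.35% to 15.4% in STZ and from 5.40% to 12.9% in control. In cone bipolar-like cells the medians were 3541 UMIs (3540.5) and 10.98% in STZ, and 3919 UMIs and 8.75% in control. The part of depth, mitochondrial share and free RNA in the ratios was not tested beyond the alternative settings of the closing section.

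Most of the 10 genes stood lower in STZ than in control across the retina, and the gap was widest in bipolar cells and cones. Levels are summed UMIs of a class per 1000000 of its UMIs (CPM), and pairs of a gene and a class were taken as measured from 20 UMIs and 10 CPM upward, both libraries together. Of 80 gene-class pairs 76 were measured. In 29 of them (38.2%) the level was at least 1.5-fold lower in STZ and in 0 it was at least 1.5-fold higher, while the log2 ratio was below 0 in 68 and above 0 in 8. Over all measured genes in the same classes, 7.99% of 61483 pairs were at least 1.5-fold lower and 9.46% at least 1.5-fold higher. The 10 genes were chosen with earlier results of these data known. The 76 pairs repeat these genes in the same libraries and are not independent, so the shares are a description. With cells thinned to 500 UMIs, 25 of the 29 lower pairs had a value and 17 of them stayed at least 1.5-fold lower; Hspa5, Pdia4, Pdia6 and Xbp1 in rod-like cells, Calr and Manf in cone-like cells, Hspa5 in amacrine-like cells and Calr in pericyte or smooth muscle-like cells did not. The pairs left out were Sdf2l1 in rod bipolar-, amacrine-, endothelial- and pericyte or smooth muscle-like cells.

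**Figure D1:**
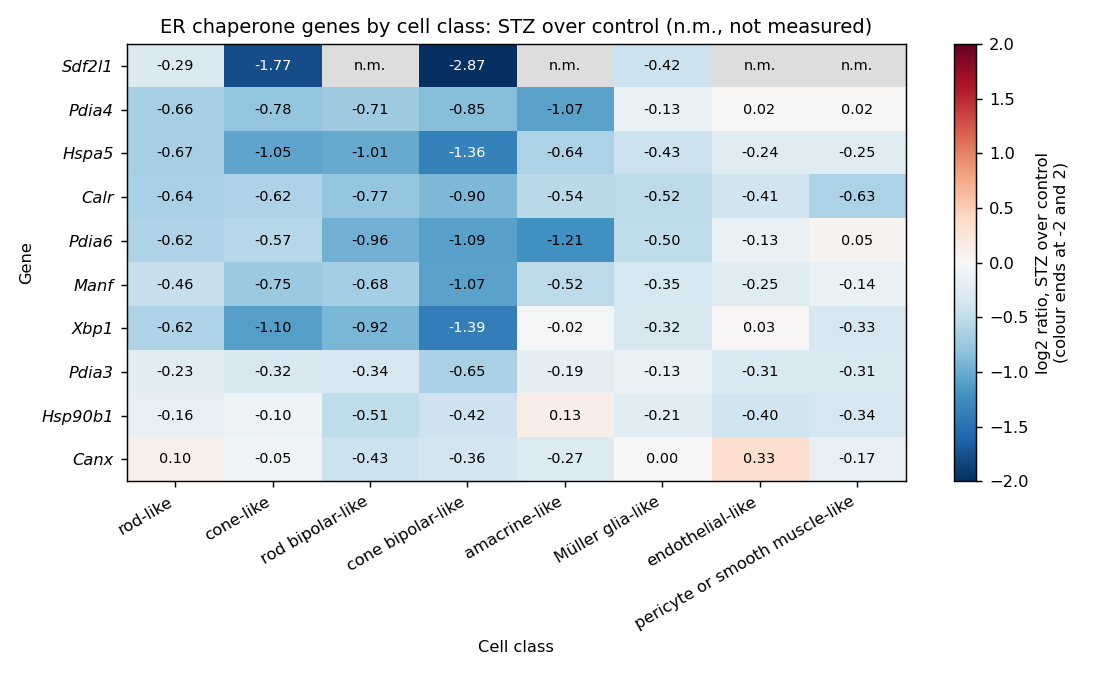
The log2 ratio of STZ over control for each gene (rows, lowest median at the top) in each cell class (columns), from summed UMIs of 1 library per group; grey cells were not measured. Values lie between -2.87 for Sdf2l1 in cone bipolar-like cells and 0.33 for Canx in endothelial-like cells, and Canx and Hsp90b1 at the bottom stay closest to 0.

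In cone bipolar-like cells (1594 STZ and 1223 control cells) all 10 genes were lower, 8 of them by at least 1.5-fold, where 4.06% of all measured genes were lower and 4.03% higher by that much. Their median log2 ratio was -0.99, and that of all 8869 measured genes was -0.03. Rod bipolar-like cells had 6 of 9 genes at least 1.5-fold lower (median -0.71), against 5.92% of all genes lower and 5.23% higher. Cone-like cells had 6 of 10 (median -0.68), against 3.13% lower and 5.24% higher. In rod-like cells 5 of 10 were lower by 1.5-fold (median -0.54), where 9.4% of all genes were lower and 9.25% higher.

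The remaining classes showed smaller or less certain differences. Amacrine-like cells, with 54 control cells, had 3 of 9 genes at least 1.5-fold lower (median -0.52), against 13.7% lower and 16.1% higher among all genes. Müller glia-like cells had 0 of 10 past 1.5-fold, although 9 of 10 ratios were below 0 (median -0.34), and the background was 2.81% lower and 5.63% higher. Endothelial-like cells had 0 of 9 (median -0.24) against 18.3% lower and 21.6% higher, and pericyte or smooth muscle-like cells had 1 of 9, Calr (median -0.25), against 10.5% lower and 13.0% higher. The share of the 10 genes past 1.5-fold was thus below the background in endothelial-like cells and close to it in pericyte or smooth muscle-like cells. The median of all measured genes lay between -0.03 and 0.03 in the 8 classes.

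**Figure D2:**
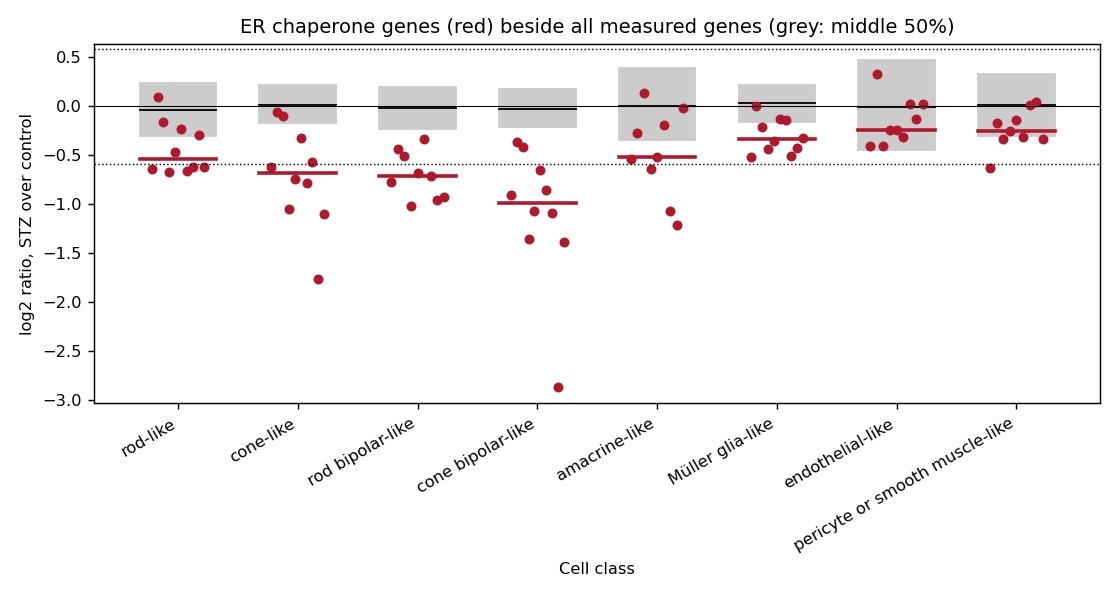
The log2 ratio of STZ over control of each measured ER chaperone gene (red points, with the median as a red line) beside all measured genes of the class (grey box, middle 50%, with the median as a black line); dotted lines mark 1.5-fold. In cone bipolar-like cells all 10 points lie below the grey box, whose lower edge is at -0.21, and in endothelial-like cells all 9 points lie inside it.

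Hspa5 encodes BiP, the most general ER chaperone and the protein that holds the stress sensors inactive. In cone bipolar-like cells it stood at 234 CPM in STZ and 598 CPM in control, from 1315 in STZ and 2783 UMIs in control. The cone-like cells had 220 CPM (219.84) in STZ and 454 CPM in control, and rod bipolar-like cells 162 in STZ and 327 CPM in control. All 3 of these levels in STZ were below every control level of the gene, of which the lowest was 299 CPM in endothelial-like cells. The log2 ratios were -1.36 (95% interval -1.45 to -1.26), -1.05 (-1.16 to -0.93) and -1.01 (-1.16 to -0.87) in that order of classes, or 2.56-fold lower in cone bipolar-like cells. These intervals, and all that follow, cover counting error only, with UMIs taken as independent.

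Hspa5 was also at least 1.5-fold lower in rod-like cells, at 207 CPM in STZ and 328 CPM in control, and in amacrine-like cells, at 395 in STZ and 616 CPM in control. Müller glia-like cells had 229 CPM in STZ and 309 CPM in control, a log2 ratio of -0.43 (-0.54 to -0.33). In the vessel classes the counting intervals included no difference: 253 CPM (252.5) in STZ and 299 CPM in control for endothelial-like cells, and 338 in STZ and 402 CPM in control for pericyte or smooth muscle-like cells. By level, amacrine-like cells stood highest in both libraries, not separated from the next class in either. Cone bipolar-like cells came next in control, above cone-like cells by their intervals. In STZ, cone bipolar-, Müller glia-, cone- and rod-like cells followed one another at 207 to 234 CPM with neighbours overlapping, and rod bipolar-like cells were lowest, below rod-like cells.

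**Figure D3:**
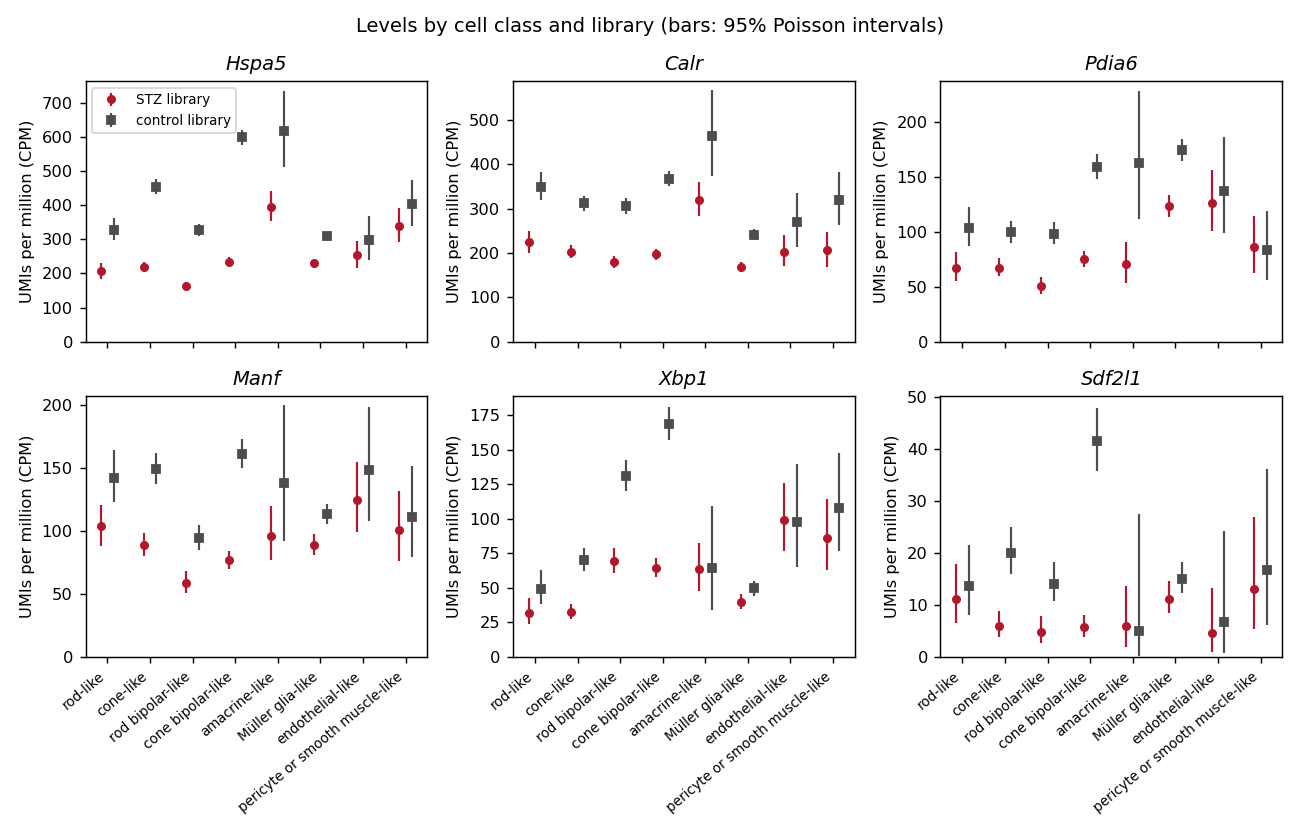
Levels of 6 of the genes in CPM by cell class, STZ in red to the left of control in grey, with 95% Poisson intervals for counting error; Sdf2l1 is drawn in every class, also in the 4 where it was too low to count as measured. In cone bipolar-like cells the STZ point lies below the control point for all 6 genes with no overlap of intervals, while in endothelial-like cells the intervals overlap for all 6.

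Hsp90b1, the Hsp90 chaperone of the ER that folds Toll-like receptors and integrins, differed less between the libraries. It stood at 399 CPM in STZ and 534 CPM in control in cone bipolar-like cells (log2 ratio -0.42, -0.50 to -0.33), and at 390.5 in STZ and 555 CPM in control in rod bipolar-like cells (-0.51, -0.61 to -0.41). It was past 1.5-fold in 0 of 8 classes, although its counting interval lay below 0 in 7 of them. Rod-like cells held its highest STZ level, 504 CPM, against 563 CPM in control.

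Of the lectins, Calr had the lower ratios. Calr was at least 1.5-fold lower in 5 of 8 classes and below 0 in all 8, with 197 CPM in STZ and 367 CPM in control in cone bipolar-like cells (log2 ratio -0.90, -1.01 to -0.79). In rod bipolar-like cells it had 179 in STZ and 305 CPM in control, in rod-like cells 224 in STZ and 349.55 CPM in control, in cone-like cells 203 in STZ and 311 CPM in control, and in pericyte or smooth muscle-like cells 206 in STZ and 319 CPM in control. Canx, its membrane-bound counterpart, was past 1.5-fold in 0 of 8 classes, with a median log2 ratio of -0.11 against -0.62 for Calr. In Müller glia-like cells Canx stood at 251 CPM in both libraries (log2 ratio 0.00, -0.11 to 0.11), where Calr had 168 CPM in STZ and 241 CPM in control. Canx was lower in the bipolar classes alone by its counting interval: 300.3 CPM in STZ and 386 CPM in control in cone bipolar-like cells, and 289 in STZ and 390.1 CPM in control in rod bipolar-like cells.

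Among the disulfide isomerases, which form and rearrange the bonds between cysteines, the log2 ratio of Pdia6 was below that of Pdia3 in all 5 neuronal classes. Pdia6 had 74.99 CPM in STZ and 159 CPM in control in cone bipolar-like cells (log2 ratio -1.09, -1.26 to -0.91), and 50.8 in STZ and 98.6 CPM in control in rod bipolar-like cells. In amacrine-like cells it had 70.4 in STZ and 163 CPM in control, from 60 in STZ and 33 UMIs in control (-1.21, -1.84 to -0.55). In pericyte or smooth muscle-like cells it stood at 86.0 CPM in STZ and 83.2 CPM in control.

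Pdia4, an isomerase known to associate with BiP, stood at 11.1 to 51.8 CPM in STZ and 18.1 to 73.4 CPM in control over the 8 classes. It was at least 1.5-fold lower in the 5 neuronal classes, with log2 ratios from -1.07 in amacrine-like cells (24 in STZ and 12 UMIs in control, interval -2.13 to 0.06) to -0.66 in rod-like cells. Müller glia-like cells had 51.8 in STZ and 56.8 CPM in control. Pdia3, the partner of both lectins, passed 1.5-fold in cone bipolar-like cells alone, at 114 CPM in STZ and 179 CPM in control (-0.65, -0.80 to -0.50), and was below 0 in all 8 classes with a median of -0.31. Within the largest shared cone bipolar-like cluster the log2 ratio was -0.38 for Pdia3 and -0.36 for Pdia4, both short of 1.5-fold. With a stricter filter on cells it was -0.51 for Pdia3 there and -0.33 for Pdia4 in rod bipolar-like cells.

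Xbp1 had its largest difference in cone bipolar-like cells, with 64.5 CPM in STZ and 169 CPM in control, from 363 in STZ and 786 UMIs in control (log2 ratio -1.39, -1.57 to -1.21). Rod bipolar-like cells had 69.3 in STZ and 131 CPM in control (-0.92, -1.15 to -0.70), cone-like cells 32.6 in STZ and 70.0 CPM in control (-1.10, -1.41 to -0.80), and rod-like cells 32.1 in STZ and 49.2 CPM in control (-0.62, -1.18 to -0.06). Under a stricter filter on cells (500 genes or more, mitochondrial share up to 10%) the log2 ratio in cone-like cells was -0.35. In control, cone bipolar-like cells held the highest Xbp1 level of the 8 classes, above rod bipolar-like cells by their intervals, whereas in STZ endothelial-like cells were highest, at 99.2 CPM, and overlapped with pericyte or smooth muscle-like cells at 86.0 CPM. Outside photoreceptors and bipolar cells its log2 ratios lay between -0.33 and 0.03. Amacrine-like cells had 63.4 in STZ and 64.1 CPM in control, Müller glia-like cells 39.6 in STZ and 49.6 CPM in control, endothelial-like cells 99.2 in STZ and 97.5 CPM in control, and pericyte or smooth muscle-like cells 86.0 in STZ and 108 CPM in control.

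Sdf2l1, which works with BiP and its J proteins to keep misfolded protein soluble, had few UMIs in every class and the lowest ratio of the 10 genes in cone bipolar- and cone-like cells. Cone bipolar-like cells held 32 UMIs of it in STZ and 193 in control, or 5.69 in STZ and 41.5 CPM in control, 7.29-fold lower (log2 ratio -2.87, -3.45 to -2.32). Cone-like cells held 24 in STZ and 80 UMIs in control, or 5.88 in STZ and 20.01 CPM in control (-1.77, -2.49 to -1.09). Rod-like cells, with 17 in STZ and 18 UMIs in control, and Müller glia-like cells, with 56 in STZ and 101 UMIs in control, had log2 ratios of -0.29 and -0.42 whose intervals included 0. Its control level in cone bipolar-like cells was above that in cone-like cells, the next in order, by the intervals, and in STZ no class was separated from the next.

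Manf, a small ER-resident protein that is secreted under stress and protects photoreceptors in mouse models, was at least 1.5-fold lower in 3 classes. It had 76.4 CPM in STZ and 161 CPM in control in cone bipolar-like cells (log2 ratio -1.07, -1.25 to -0.90), 88.7 in STZ and 149 CPM in control in cone-like cells (-0.75, -0.94 to -0.56), and 58.9 in STZ and 94.3 CPM in control in rod bipolar-like cells (-0.68, -0.94 to -0.43), where it was -0.26 within the single shared cluster. Rod-like cells had 103 in STZ and 142 CPM in control, and Müller glia-like cells 88.6 in STZ and 113 CPM in control. All 8 ratios of Manf were below 0, and so were those of Hspa5, Calr and Pdia3.

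Pigment epithelium-like cells (125 STZ and 48 control) and microglia-like cells (95 STZ and 39 control) had too few control cells to enter the counts. Hspa5 stood at 484 CPM in STZ and 757 CPM in control in pigment epithelium-like cells and at 547 in STZ and 951 CPM in control in microglia-like cells. Manf had 56.3 in STZ and 168 CPM in control in pigment epithelium-like cells, from 15 in STZ and 14 UMIs in control. Pdia6 went the other way there, with 214 CPM in STZ and 120.1 CPM in control from 57 in STZ and 10 UMIs in control, and its interval included no difference (log2 ratio 0.83, -0.15 to 1.97).

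The lower levels were found in each cone bipolar-like cluster that could be compared. Among the 20 clusters that reached 50 cells in each library, 7 were cone bipolar-like, and their median log2 ratios over the measured genes ran from -1.27 to -0.66. Hspa5 in these 7 clusters had log2 ratios from -1.76 to -0.90. The cluster with the lowest Hspa5 ratio held 274 STZ and 229 control cells, at 224 in STZ and 759 CPM in control. The 2 cone-like clusters had medians of -0.70 and -0.67.

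Rod bipolar-like cells could be compared within a single cluster only where 109 STZ and 849 control cells fell together. There Hspa5 had 151 CPM in STZ and 327 CPM in control, Xbp1 53.1 in STZ and 134 CPM in control, and Calr 190.4 in STZ and 305 CPM in control. The median of the 10 genes was -0.80, with Sdf2l1, at 0 UMIs in STZ, set to a floor of 3 UMIs. The cells of this cluster had a median of 1797 UMIs in STZ and 4581 UMIs in control, whose part in the difference was not tested. Over the whole class the median of the 9 measured genes was -0.71.

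A Müller glia-like cluster of 254 STZ and 59 control cells was the exception among the 20, with a median log2 ratio of 0.44 over 7 measured genes. Canx had 218 CPM in STZ and 96.2 CPM in control in it, from 68 in STZ and 7 UMIs in control (log2 ratio 1.18, 0.06 to 2.55), Manf 29 in STZ and 3 UMIs in control (1.17, -0.52 to 3.53) and Hsp90b1 87 in STZ and 12 UMIs in control (0.76, -0.12 to 1.76). Hspa5 in the same cluster had 189 CPM in STZ and 247 CPM in control. The endothelial-like cluster with similar cell numbers in both libraries (55 STZ and 63 control cells) had a median of -0.03, with 299 CPM of Hspa5 in STZ and 291 CPM in control and 173 CPM of Calr in STZ and 273 CPM in control.

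The difference lay in many cells. With each cell thinned to 1000 UMIs, cone bipolar-like cells carried 1.52 ± 1.31 summed UMIs of the 10 genes in STZ (SD over 1522 cells) and 2.68 ± 2.001 in control (1174 cells). Cells with none of the 10 made up 23.6% in STZ (exact binomial 95% interval 21.5 to 25.8) and 10.1% in control (8.39 to 11.9). In rod bipolar-like cells the mean was 1.35 ± 1.24 in STZ (765 cells) and 2.14 ± 1.54 in control (865 cells), and 27.8% of cells in STZ and 12.8% in control had none. Cone-like cells had 1.44 ± 1.204 in STZ (876 cells) and 2.07 ± 1.72 in control (739 cells), and Müller glia-like cells 1.49 ± 1.31 in STZ (1026 cells) and 1.81 ± 1.54 in control (1219 cells). Among cone bipolar-like cells 1 UMI was the most frequent value in STZ, and 1 and 2 UMIs were equally frequent in control (251 cells each). The 90th percentile was 3 UMIs in STZ and 5 UMIs in control, and the variance over the mean 1.13 in STZ and 1.49 in control.

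**Figure D4:**
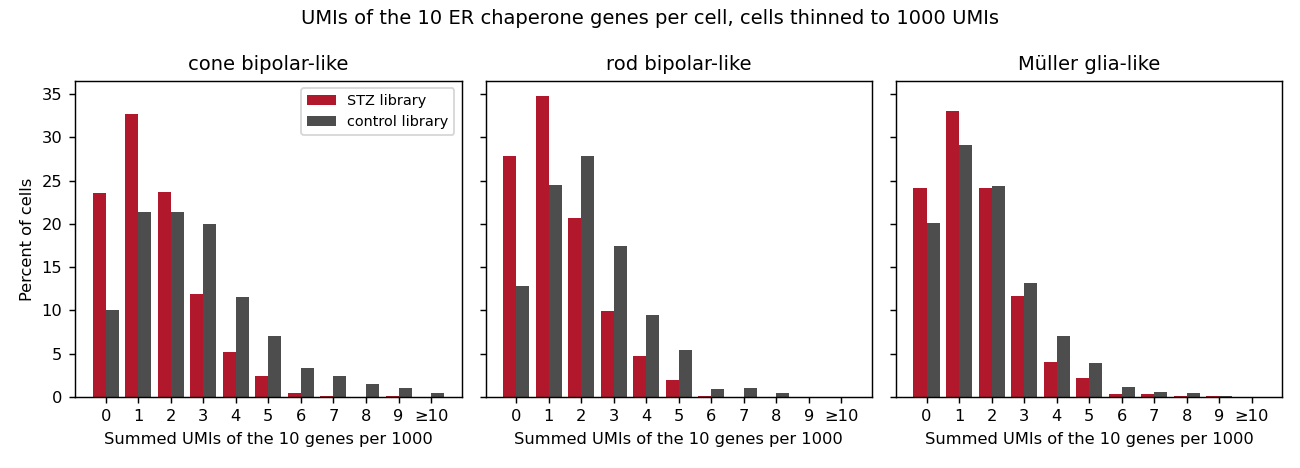
The percent of cells (vertical axis) by the summed UMIs of the 10 genes in a cell thinned to 1000 UMIs (horizontal axis), STZ in red to the left of control in grey, for cone bipolar-, rod bipolar- and Müller glia-like cells. In cone bipolar-like cells 23.6% of STZ cells and 10.1% of control cells carry none, and the STZ bars are taller at 0, 1 and 2 UMIs and shorter from 3 upward.

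At 500 UMIs per cell, 10.9% of STZ and 24.9% of control cone bipolar-like cells held a UMI of Hspa5 (intervals 9.37 to 12.5 and 22.5 to 27.4), and before thinning 51.3% in STZ and 75.3% in control. Cone-like cells had 9.04% in STZ and 18.98% in control, and rod bipolar-like cells 8.52% in STZ and 15.4% in control. For Xbp1 in cone bipolar-like cells the shares were 3.51% in STZ and 6.87% in control at 500 UMIs, and 18.6% in STZ and 40.6% in control before thinning. In pericyte or smooth muscle-like cells the share for Hspa5 was 22.1% in STZ and 14.3% in control at 500 UMIs, which goes against the CPM, but 25.9% in STZ and 37.8% in control at 1000 UMIs and 63.1% in STZ and 65.9% in control before thinning, so no order is read from it. No class known to lack these genes gave the share of cells that free RNA alone puts above 0. The rod transcript Gnat1, taken as a measure of free RNA, put its share of UMIs at 33.8% in STZ and 30.3% in control in cone bipolar-like cells, 43.1% in STZ and 26.4% in control in cone-like cells, and 29.8% in STZ and 22.99% in control in rod bipolar-like cells. Its part in the shares of cells was not tested. The 5% of cone bipolar-like cells richest in Hspa5 held 22.7% of its UMIs in STZ and 21.4% in control. Across cells of a class in a library, at 1000 UMIs, the mean Pearson r between pairs of the 10 genes was between -0.01 and 0.08, too weak in such sparse counts to be a finding.

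No list of ER genes outside the 10 came near the 38.2% of pairs at least 1.5-fold lower among the 10. The translocon list (4.92% lower, 3.28% higher) and the cofactors of BiP (6.41% lower, 2.56% higher) passed 1.5-fold less often than all genes. Lists and all genes were not matched by level, so nothing is read from these smaller shares. Ratios of the BiP cofactors were below 0 in 47 of 78 pairs, with class medians from -0.35 in cone-like cells to 0.17 in amacrine-like cells. Glycan trimming leaned lower (11.5% lower, 2.56% higher). Of 14 further disulfide isomerases and oxidases, 7 of 95 measured gene-class pairs were at least 1.5-fold lower and 10 higher. The cofactors of BiP had 5 of 78 lower and 2 higher, and the lumenal and KDEL-receptor genes 8 of 92 lower and 4 higher. Glycan trimming had 9 of 78 lower and 2 higher, with 64 of 78 ratios below 0. ER-associated degradation had 7 of 103 lower and 9 higher, and the translocon with signal peptidase 9 of 183 lower and 6 higher. Stress sensors and their proteases had 5 of 49 lower and 5 higher, and the ATF4 and CHOP branch downstream of PERK 2 of 53 lower and 6 higher. Immediate-early genes, which respond to tissue handling among other stimuli, had 5 of 62 lower and 5 higher. Their class medians ran from -0.43 in rod-like cells (3 of 8 lower, 0 higher) to 0.43 in cone bipolar-like cells (0 of 8 lower, 1 higher). Egr1 in rod bipolar-like cells had 102 CPM in STZ and 26.4 CPM in control. The part of handling in the ratios of the 10 genes was not tested. The background over all genes was 7.99% lower and 9.46% higher, beside 3.77% to 11.5% lower and 2.56% to 11.3% higher in these lists.

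**Figure D5:**
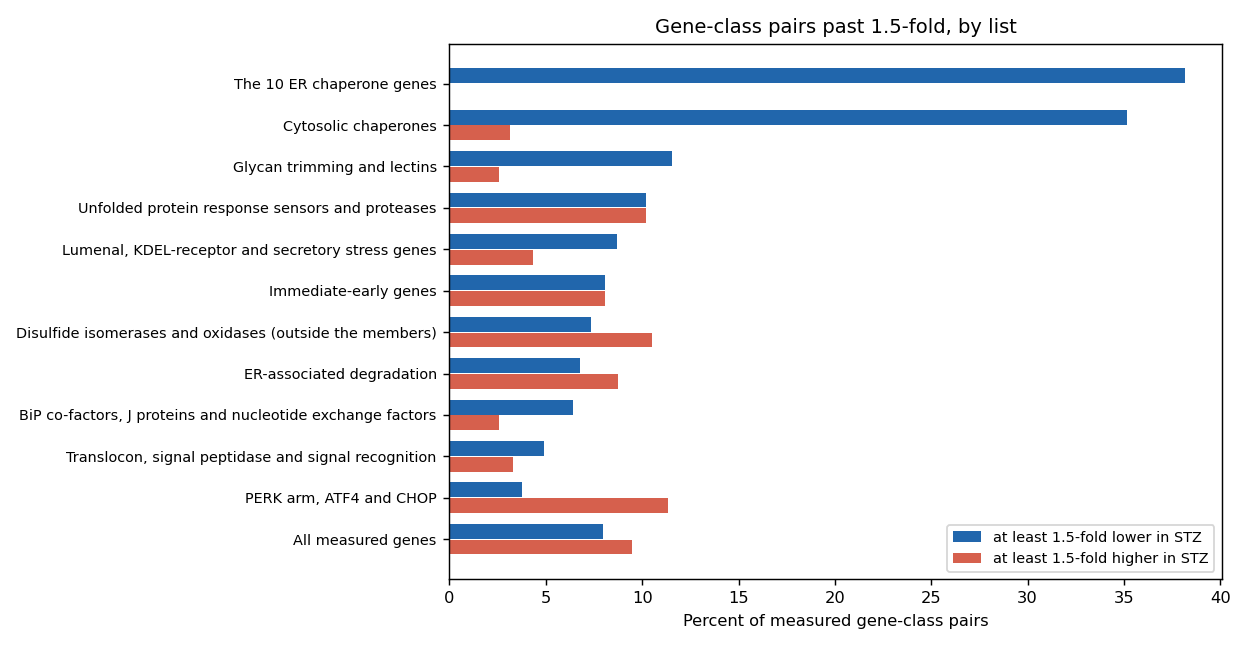
The percent of measured gene-class pairs at least 1.5-fold lower (blue) or higher (orange) in STZ than in control, for the 10 ER chaperone genes, 10 further gene lists and all measured genes. The ER chaperone genes (38.2% lower, 0 higher) and the cytosolic chaperones (35.2% lower, 3.12% higher) lie far from the 7.99% lower and 9.46% higher of all genes, and the other lists lie between 3.77% and 11.5% lower.

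Within those lists some genes were lower in several classes. Creld2, an ER protein induced with Manf under ER stress, was at least 1.5-fold lower in 5 of 6 classes, with 12.01 CPM in STZ and 27.5 CPM in control in cone-like cells and 13.9 in STZ and 22.3 CPM in control in cone bipolar-like cells. Syvn1, the ubiquitin ligase of ER-associated degradation, was lower in 4 of 7 classes, with 18.3 in STZ and 31.0 CPM in control in rod-like cells, but had 20.3 in STZ and 21.1 CPM in control in cone bipolar-like cells. Hyou1, a nucleotide exchange factor of BiP, had 13.9 CPM in STZ and 27.3 CPM in control in cone bipolar-like cells and a median log2 ratio of -0.47, and was lower in 2 of 6 classes but higher in 1, amacrine-like cells, at 22.3 in STZ and 9.85 CPM in control from 19 in STZ and 2 UMIs in control. Mogs, the glucosidase that trims new glycans, was lower in 2 of 4 classes (median -0.59).

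Others were higher in STZ. Selenos, a selenoprotein of ER-associated degradation, stood at 138 CPM in STZ and 70.7 CPM in control in cone bipolar-like cells and at 139 in STZ and 65.4 CPM in control in rod bipolar-like cells, and was above 0 in all 8 classes. Ssr4, a subunit of the translocon-associated complex, had 146 in STZ and 102 CPM in control in cone bipolar-like cells (median log2 ratio 0.40), Sec61g, a translocon subunit, a median of 0.38, and Txndc5, a disulfide isomerase, a median of 0.50 over 7 classes. Of the sensors, Atf6 had 40.7 CPM in STZ and 55.7 CPM in control in cone bipolar-like cells (log2 ratio -0.45), and Ern1, which encodes IRE1, was measured in rod- and cone-like cells alone, at 13.7 in STZ and 12.3 CPM in control in cone-like cells. In the PERK branch Nupr1, a stress-induced transcriptional regulator, was at least 1.5-fold higher in 3 of 5 classes. It had 30.1 CPM in STZ and 7.57 CPM in control in rod-like cells, 351 CPM in STZ and 223 CPM in control in Müller glia-like cells, and 24 UMIs in STZ and 1 UMI in control in endothelial-like cells. Outside Müller glia-like cells, the Müller markers Glul (423 CPM in STZ, 159 CPM in control) and Apoe (831 CPM in STZ, 280 CPM in control) were also higher in STZ. The part of such RNA in the Nupr1 ratios of rod- and endothelial-like cells was not tested. Atf4, the main factor of that branch, had 160 CPM (159.57) in STZ and 135 CPM in control in cone bipolar-like cells and a median log2 ratio of 0.19.

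Further genes were among the 4 largest medians of their lists. Medians of the log2 ratio over classes were below 0 for the ER-lumen proteins Erp44 (-0.36), Erp29 (-0.34), Cnpy2 (-0.41) and Fkbp2 (-0.39), and for Dnajb11 (-0.33) and Sdf2 (-0.20), cofactors of BiP. They were also below 0 for the glycan-trimming genes Prkcsh (-0.37), Man1b1 (-0.39) and Edem3 (-0.31), for Derl2 (-0.25) of ER-associated degradation, for Rpn1 (-0.34) and Ostc (-0.28) of the oligosaccharyltransferase, for Atf6b (-0.36) and Eif2ak3 (-0.35), which encodes PERK, and for Sesn2 (-0.36) and Jun (-0.41). They were above 0 for Qsox1 (0.47), Dnajc10 (0.27), Kdelr2 (0.34), Ufd1 (0.51), Mbtps2 (0.16), Cebpb (0.30), Fos (0.30), Egr1 (0.31) and Junb (0.14). Qsox1 was at least 1.5-fold higher in 3 of 7 classes and lower in 1.

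The cytosolic chaperones had 45 of 128 pairs (35.2%) at least 1.5-fold lower and 4 higher, a share close to the 38.2% of the ER chaperones. Their class medians were lowest in cone-like cells, at -0.67, where 10 of 16 genes were past 1.5-fold, and 3 of 14 were past it in cone bipolar-like cells. Hsph1, an Hsp110 exchange factor, had 21.5 CPM in STZ and 50.9 CPM in control in cone bipolar-like cells and 84.1 in STZ and 169 CPM in control in cone-like cells. Chordc1, a partner of Hsp90, was lower in 8 of 8 classes, with 40.7 in STZ and 86.8 CPM in control in cone bipolar-like cells. Hspa8, the constitutive cytosolic Hsp70, had 697 CPM in STZ and 1623 CPM in control in endothelial-like cells, a class in which Hspa5 had 253 in STZ and 299 CPM in control, and 1016 in STZ and 1327 CPM in control in cone bipolar-like cells. Hspa1a, the inducible Hsp70, was measured in 5 classes and lower in 4 of them (median log2 ratio -0.70).

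The 5 genes with the ER stress response element in the promoter window had 14 of 40 measured pairs at least 1.5-fold lower, with a median log2 ratio of -0.43. The 4 genes whose window lacked it had 12 of 28, with a median of -0.33. Hspa5 and Calr were in the set with the element, and so were Canx and Hsp90b1, the pair with 0 pairs past 1.5-fold. Another 32 genes held the element; 18 were in the count table and 10 were measured in at least 1 class, where 11 of 42 pairs were lower (26.2%) and 2 higher (4.76%). Of those 11 lower pairs 9 came from Creld2 and Syvn1, in 13 pairs. The other 8 genes had 2 of 29 lower (6.90%), beside 7.99% over all genes. These counts and this split were chosen after values had been seen.

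Over the 16 class means (8 classes in 2 libraries) the genes most like the mean of the 10 were ranked by Pearson r of log2(CPM + 10), among 1517 genes at 50 CPM or more in every class. Fxr1 led with r = 0.79, followed by Pfkl (0.79), Caprin1 (0.77), Srsf6 (0.77), Smc1a (0.75), Tra2a (0.71), Aamp (0.70), Vti1b (0.68), Rfc1 (0.68) and Cdc37 (0.66). Of the 10 themselves, Hspa5 had the highest r with their mean, 0.90, then Calr (0.87) and Manf (0.86), and Canx the lowest (0.30). The points share 2 libraries and their depths, and the mean contains each of the 10.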

How the data were processed

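The deposited table holds raw UMI counts of 17087 genes in 19562 cells, and cell names end in a tag for STZ or control, which sets the library. Per the submitters' processing notes, Cell Ranger 3.0.1, Seurat 3.0 and build mm10 were used to make these counts, with settings not given in the sources used here. The values show a filter before deposit: no cell exceeds 2999 genes, and the lowest UMI totals are 499 in STZ and 501 in control. Total depth was 33178623 UMIs in STZ and 27279124 in control.

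Cells under 200 genes or above 20% of UMIs on the 13 mitochondrial genes were dropped, the second being 28.5% of STZ and 25.7% of control cells. Scrublet scores were computed per library, and the highest scores were removed at 0.8% per 1000 cells in both (628 STZ and 227 control cells). Clustering (scanpy 1.11.5, leidenalg 0.10.2) used 2000 variable genes without the 10 genes and the 10 lists, 30 principal components, 15 neighbours and resolution 1.0, and gave clusters named by markers. Mitochondrial genes were also left out. Each gene was centred and scaled within each library before the components were taken, which brings the libraries closer together. A marker led a cluster in at least 10% of its cells, at 1.5-fold over the other cells and at 25% of its highest cluster. A name needed 3 leading markers. The name was withheld where another class had more markers among the 10 top genes of the cluster. It was also withheld where the cluster had low UMI counts and no marker of its own class among those 10 genes. Names rebuilt in this way may differ from the study's own.

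UMIs were summed per class and library and divided by all UMIs of the class (CPM). Ratios are STZ over control, with conditional binomial intervals (95%), Poisson intervals for levels and Clopper-Pearson intervals for shares, computed with scipy 1.17.1. The ratio intervals were checked on simulated Poisson counts. As the intervals assume such counts, the check cannot show how they cover counts with more spread. A count of 0 was set to 3. With 1 library per group, 0 tests were made. Shares used cells thinned to 500 or 1000 UMIs. The 10 genes and the lists were chosen with earlier results of these data known. All 10 genes are named; of each list, up to 4 genes with the largest absolute median log2 ratio over at least 3 classes are named, and 10 genes of like pattern. Ern1 is named outside this rule, after its values were seen. Promoters came from the RefSeq table of GRCm38.p6 and gene extents from GENCODE M21. Protein sequences were not analysed here. Alternatives (13 settings) are in the closing section.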

Additional observations from a re-analysis of the deposited data

How the results depend on the processing

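Under 13 alternative settings the number of gene-class pairs at least 1.5-fold lower in STZ lay between 19 and 32, beside 29 as reported. All of those 29 pairs that had a value under a setting stayed below 0 under each of the 13. At least 1.5-fold lower were 17 of 25 with cells thinned to 500 UMIs, 22 of 26 both under the stricter filter on cells and in single clusters, 23 of 24 with free RNA taken off, 26 of 29 as a mean over cells, 27 of 29 with mitochondrial genes out of the totals and 28 of 29 centred on the median gene, and all with a value under the other 6. The lowest count, 19, came from cells gated one by one on marker UMIs, which left 6 classes, as cone bipolar- and amacrine-like cells fell under 50 control cells; over the same 6 classes the reported count is 18. Pairs at least 1.5-fold higher numbered 3 with cells thinned to 500 UMIs and 7 with free RNA taken off, and 0 under the other 11. With cells thinned to 500 UMIs the median log2 ratio in cone bipolar-like cells was -0.79, beside -0.99, and the cause was not tested. With free RNA taken off, at a share set by the rod gene Gnat1, the median in endothelial-like cells was 0.90, beside -0.24. That share was 81.4% in STZ and 26.5% in control there, and 23.0% to 43.1% in the other classes. It takes all Gnat1 in a class as free RNA with a single Gnat1 level per library, which was not tested. Before removal, endothelial-like cells had 3672 CPM of their marker Cldn5 in STZ and 6561 CPM in control. Their marker Ly6c1 had 3443 CPM in STZ and 4188 CPM in control. No difference is read from the median of 0.90. Rod-like cells have no value under this setting. Amacrine-like cells gave no value under the stricter filter on cells or as a single shared cluster. The ratio of single genes moved beyond its counting interval in 26 of 64 pairs under thinning, 16 of 65 with free RNA taken off, 15 of 67 in single clusters and 7 of 65 under the stricter filter, with 0 changes of sign among pairs past 1.5-fold. Thinning, single clusters and the stricter filter leave fewer UMIs and so add counting error, whose part in these moves was not tested. Depth limits Sdf2l1, Pdia4 and the classes with few control cells, in which a 1.5-fold difference can lie within counting error. No paired analysis was possible because each group is 1 library.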
